A study of Mus musculus with 2 samples.

Results

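Conventional dendritic cells of the mouse lung were drawn from single-cell libraries of sorted live lung cells, 1 library labelled GFI1 KO and 1 labelled GFI1 WT, and they numbered 413 of 29837 filtered cells. The members were chosen by measured values. A cell had to hold UMIs (unique molecular identifiers, each counting 1 captured transcript) of at least 2 of the 7 genes Flt3, Zbtb46, Xcr1, Clec9a, Cd209a, Ccr7 and Fscn1 and at least 10 UMIs of H2-Aa, H2-Ab1 and H2-Eb1 together. It also had to hold 0 UMIs of Cd3e, Cd79a, Ebf1, Mertk, Ptprb and Siglech, genes of T cells, B cells, macrophages, endothelium and plasmacytoid dendritic cells. The GFI1 KO animals lack the transcriptional repressor GFI1 through a germline knockout, the GFI1 WT animals carry the intact gene, and both were adult mice of the C57BL6/J background, with no treatment named in the labels. Lungs were perfused and digested with collagenase IV and DNase I, and Hoechst was used to sort live cells of all kinds, so that nothing in the sort enriched dendritic cells. Each genotype is represented here by 1 library, labelled as coming from mouse 1. The paper describes 2 samples per genotype for its single-cell experiments, and only these libraries were used here. Differences between the labels could therefore not be tested against the spread between animals, and every interval below covers counting error only.

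Conventional dendritic cells take up antigen in the airways, carry it to the draining lymph node and present it to T cells on MHC molecules. They grow in response to FLT3 ligand and fall into a lineage marked by XCR1 and CLEC9A (cDC1), which depends on IRF8 and BATF3 and presents antigen of dead cells to CD8 T cells, and a lineage marked by SIRPα and, in part, CD209a and CD301b (cDC2), which depends more on IRF4. On maturation either lineage switches on the lymph node homing receptor CCR7 and the actin-bundling protein fascin (Fscn1).

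The targeted gene was examined first. Under the GFI1 KO label Gfi1 gave 340 UMIs over the filtered cells, or 3.59 CPM (UMIs per 1000000 UMIs of the same cells), in 302 cells. Under the GFI1 WT label it gave 470 UMIs, or 3.46 CPM, in 415 cells. In the dendritic cells Gfi1 was near absent under both labels, with 1 UMI under GFI1 KO and 0 under GFI1 WT, a count of 0 for which the exact Poisson interval reaches 1.05 CPM. In B cells, gated on other genes, it gave 55 UMIs (12.7 CPM) under GFI1 KO and 92 UMIs (5.38 CPM) under GFI1 WT. The part of the locus that the knockout removes, relative to these 3′ tags, is not given in the sources used here, so the Gfi1 counts do not check the labels. They do not follow them either, and each direction given below is between the labels of the libraries and not between checked genotypes. The related Gfi1b gave 1 and 3 UMIs in the dendritic cells.

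Dendritic cells made up a smaller share of the library labelled GFI1 KO. They numbered 84 of 10495 filtered cells there (0.800%, exact Clopper-Pearson 95% interval 0.639 to 0.990) and 329 of 19342 under GFI1 WT (1.70%, 1.52 to 1.89), a difference of -0.901 percentage points (-1.15 to -0.641). Among cells with a UMI of Ptprc, which encodes the pan-leukocyte protein CD45, the shares were 0.816% and 1.96%, so the order held within leukocytes. The makeup of the libraries differed elsewhere too. Endothelial cells were 0.905% under GFI1 KO and 11.4% under GFI1 WT, B cells 9.51% and 16.8%, and monocytes with MHC class II 4.65% and 0.538%. Shares within 1 library depend on each other, and whether the smaller share came from fewer dendritic cells or from more of other cells cannot be told apart.

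Depth in these cells was alike. The median dendritic cell held 12414 UMIs under GFI1 KO and 12876 under GFI1 WT, although the median filtered cell held 11076 and 6217. The medians of H2-Aa, H2-Ab1 and H2-Eb1 together were 292 and 275 UMIs per cell, far above the threshold of 10. Scrublet, which simulates doublets, called 1 of the 84 and 7 of the 329 cells, and 0 of the members shared a barcode between libraries, against 74 barcodes over all cells.

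The threshold on dendritic cell genes did not bear equally on the libraries. Just inside it, with exactly 2 of the 7 genes, were 27 cells under GFI1 KO and 76 under GFI1 WT, and their median CD11c antibody tag was 126 and 362 UMIs. Just outside, with 1 gene and all other criteria met, were 140 and 79 cells. Of the 140, Flt3 was the lone gene in 108, and 118 held at least 2 of 5 monocyte genes, against 20 of the 79. The median CD11c tag of these outside cells was 9.5 under GFI1 KO and 220 under GFI1 WT. Most of the cells just outside under GFI1 KO were thus monocyte-like in RNA and low in CD11c, and those under GFI1 WT were not. Such cells also lay just inside, where 14 of the 27 under GFI1 KO and 6 of the 76 under GFI1 WT held at least 2 of the 5 monocyte genes. The threshold thus did not keep monocyte-like cells out of the members.

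The 5 markers that name the population were all present in it. Flt3, the receptor for FLT3 ligand, was detected in 89.3% of the dendritic cells under GFI1 KO and 79.6% under GFI1 WT, and Zbtb46, a transcription factor of conventional dendritic cells, in 66.7% and 82.1%. Xcr1 was detected in 34.5% and 33.4%, Cd209a in 45.2% and 48.0% and Ccr7 in 15.5% and 24.6%. In the B cells, whose median depth was 4186 and 4778.5 UMIs, Flt3 was detected in 7.72% and 5.54% of cells, Zbtb46 in 3.21% and 3.60%, Xcr1 in 0.100% and 0.308% and Cd209a in 0.401% and 0.738%, and Ccr7, which B cells use themselves, in 80.5% and 78.6%. The B cell values are given as those of a separate lineage at lower depth, and the source of these UMIs in B cells was not tested. Monocytes with MHC class II held Flt3 in 20.5% and 9.62% of cells and Zbtb46 in 1.23% and 1.92%. Their gate allowed fewer than 2 of the 7 genes, which limits these values. Endothelial cells held Flt3 in 0% and 0.227% and Zbtb46 in 25.3% and 43.3%, so single genes of the rule were not confined to dendritic cells. Since these genes chose the dendritic cells, their presence there is a description. Proteins that the rule did not use were read from the antibody tags. The median CD45 tag was 1120.5 and 882 UMIs, and the median CD11c tag, the integrin of dendritic cells, was 553.5 and 523 against 3 and 6 in B cells. The B220 tag of B cells and plasmacytoid dendritic cells was low, at a median of 5 and 6 UMIs against 258.5 and 149 in B cells.

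The cells were then divided by which of 3 gene sets they held. Xcr1/Clec9a cells numbered 30 under GFI1 KO (35.7% of dendritic cells) and 100 under GFI1 WT (30.4%). Cd209a cells numbered 30 (35.7%) and 121 (36.8%), and Ccr7/Fscn1 cells 9 (10.7%) and 54 (16.4%). The differences in these shares were 5.32 percentage points (-6.13 to 17.6) for Xcr1/Clec9a, -1.06 (-12.6 to 11.3) for Cd209a and -5.70 (-12.9 to 3.77) for Ccr7/Fscn1, and each interval spanned 0. Under the alternatives run they went from 4.52 to 12.6 points for Xcr1/Clec9a, from -9.38 to -2.33 for Cd209a and from -9.35 to -3.02 for Ccr7/Fscn1. Cells with genes of more than 1 set numbered 11 and 49, and cells with Flt3 and Zbtb46 alone 4 and 5. In 7 of the 11 and 25 of the 49 mixed cells the lesser set rested on 1 UMI. Of all filtered cells the classes were 0.286% and 0.517%, 0.286% and 0.626%, and 0.0858% and 0.279%, in the same order.

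The classes differed in genes that had no part in the division, and did so in both libraries. These genes come from the cells that were divided, and their levels are given without a test. Xcr1/Clec9a cells carried Clnk, an adaptor of immune receptor signalling, at 176 CPM under GFI1 KO and 227 under GFI1 WT, against 2.68 and 3.37 CPM in the other classes. Itgae, the αE integrin CD103 of airway cDC1, was 21.8 and 43.8 times as high as in the other classes, and Tlr3, the receptor for double-stranded RNA, was at least 21.8 and 96.3 times as high. Gcsam, Pcdh7, Rab7b, P2ry14, Cd207 (langerin), Plce1 and Septin3 completed the leading 10.

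Cd209a cells were led by lectins. Mgl2, which encodes the lectin CD301b of cDC2, stood at 476 and 1664 CPM against 14.5 and 47.9 in the other classes, and its neighbour Clec10a (CD301a) was 10.5 and 66.2 times as high as there. Clec4b1, a further C-type lectin, followed with 7.31 and 25.4, and Abca9, Ank, Ms4a4c, Myo1e, Dab2, Wfdc17 and I830077J02Rik were also among the 10. The Mgl2 ratios of class to other classes, 32.9 and 34.7, were nearly equal although its level under GFI1 KO was the lower.

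Ccr7/Fscn1 cells were led by Cd63, a tetraspanin of late endosomes, at least 124 and 119 times as high as in the other classes. Cacnb3, Mreg, Anxa3, Atxn1, Tspan3, Serpinb6b and Fabp5, a fatty acid binding protein, followed. The subunit of interleukin-12 and interleukin-23, Il12b, was 132 and 24.9 times as high, and the chemokine Ccl5 22.3 and 33.0 times. The invariant chain of MHC class II, Cd74, was lowest in this class, at 8256 and 11445 CPM against 27053 and 23969 in Xcr1/Clec9a cells and 25221 and 30347 in Cd209a cells. The median sum of the 3 MHC class II genes was 55 and 84.5 UMIs in Ccr7/Fscn1 cells, against 343.5 and 309.5 in Xcr1/Clec9a cells and 254 and 306 in Cd209a cells.

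Irf8 and Irf4 differed between the lineages. Irf8, which specifies cDC1, was at 1540 CPM under GFI1 KO and 1567 under GFI1 WT in Xcr1/Clec9a cells, at 67.0 and 13.3 in Cd209a cells and at 323 and 283 in Ccr7/Fscn1 cells. Irf4 gave 3.08 and 8.13 CPM in Xcr1/Clec9a cells and 42.3 and 113 in Cd209a cells. Sirpa, the inhibitory receptor by which cDC2 are sorted, was, like Irf4, higher in Cd209a cells, at 296 and 237 CPM against 49.3 and 5.42 in Xcr1/Clec9a cells. Zbtb46, a gene of the rule, was at 259 and 274 CPM in Xcr1/Clec9a cells, 401 and 474 in Ccr7/Fscn1 cells and 141 and 255 in Cd209a cells. Cst3, which encodes the protease inhibitor cystatin C and is abundant in dendritic cells, was at 31490 and 28542 CPM in Xcr1/Clec9a cells and 5193 and 12160 in Cd209a cells. In Ccr7/Fscn1 cells Cst3 was at 14518 and 14344 CPM, so that Cd209a cells had the lowest level of the 3 classes under either label.

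Surface protein separated the lineages as well. The median CD11b tag, of the αM integrin of cDC2 and monocytes, was 542 UMIs under GFI1 KO and 582 under GFI1 WT in Cd209a cells and 21.5 and 15 in Xcr1/Clec9a cells. The CD11c tag was highest in Xcr1/Clec9a cells, at medians of 1051 and 926.5. In Cd209a cells it was 127 and 302, and the middle 50% of cells spanned 28 to 398 under GFI1 KO and 194 to 525 under GFI1 WT. Monocytes with MHC class II had CD11c medians of 8 and 11.5 and CD11b medians of 704 and 496.5. The CD117 (KIT) tag also favoured Xcr1/Clec9a cells, with medians of 52 and 49 against 5 and 10 in Cd209a cells and 2 and 5 in B cells.

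Gene levels were next compared between the labels over all dendritic cells. Among 9122 genes with at least 30 UMIs, 349 (3.83%) were at least 2-fold higher and 615 (6.74%) at least 2-fold lower in the library labelled GFI1 KO, and the median ratio of GFI1 KO over GFI1 WT was 1.02. The antigen presentation genes lay near that median. Of 14 MHC class II machinery genes outside the rule 0 were past 2-fold higher and 1 lower, and of 18 MHC class I machinery genes 0 and 1. H2-Ab1, an MHC class II chain that the rule used, was at 9380 and 9355 CPM, which only describes the cells it helped to choose. Of 13 cDC1 genes outside the rule 0 were past 2-fold in either direction.

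Many maturation genes and some chemokines were lower over all dendritic cells. Of 18 mature dendritic cell genes outside the rule, 0 were past 2-fold higher and 11 lower, with a median ratio of 0.467. Of 13 chemokines, 0 and 6 were, with a median of 0.591. Ccl22, a ligand of the T cell receptor CCR4, was at 257 CPM under GFI1 KO and 1539 under GFI1 WT (ratio 0.167, 0.146 to 0.190), with UMIs in 17 of 84 and 142 of 329 cells. Ccl17, its partner ligand of CCR4, was at 475 and 1725 CPM (ratio 0.276, 0.250 to 0.304). Aldh1a2, an enzyme of retinoic acid synthesis by which dendritic cells imprint T cells, was at 4.37 and 87.9 CPM, in 4 and 68 cells. Apol7c, an apolipoprotein L gene, was held by 1 cell with 1 UMI under GFI1 KO and by 25 cells with 474 UMIs under GFI1 WT. Itgb8, the β8 integrin that activates TGF-β, was detected in 1 of 84 and 27 of 329 cells. Ccr7 and Fscn1, the rule's own maturation genes, had ratios of 0.359 and 0.273. The share of Ccr7/Fscn1 cells among dendritic cells (10.7% and 16.4%) moves with these sums, and its part in them was not tested apart from the values within that class, given further on.

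Monocyte markers were higher. Of 10 monocyte markers 8 were past 2-fold higher and 0 lower, with a median ratio of 5.16, although Fcgr1 (44 and 16 UMIs) and Vcan (120 and 6 UMIs) passed the minimum through the GFI1 KO cells alone and could only be higher. The 10 had a summed level of 7809 CPM under GFI1 KO and 1874 under GFI1 WT. Lyz2 (lysozyme) was the most abundant of them, at 4899 and 994 CPM. The leading genes were Saa3, an acute-phase protein (187 and 0.567 CPM), Vcan, a proteoglycan of monocytes (131 and 1.70), the granule proteins Lcn2 (132 and 1.99) and Prtn3 (38.3 and 0.567), Lrg1 (62.3 and 1.42), Gab1 (129 and 5.96), Thbs1 (469 and 29.8) and Hp (261 and 15.6). Of these, Saa3, Lcn2, Prtn3, Lrg1 and Gab1, like Vcan, had fewer than 30 UMIs under GFI1 WT. They passed the minimum through the GFI1 KO cells alone and could only be higher, so their rank is not read as a result. Levels in B cells, a separate lineage, are given beside the leading genes and Lyz2. In B cells Saa3 was at 98.3 and 0.819 CPM, Vcan at 150 and 3.69, Lcn2 at 97.3 and 3.98, Prtn3 at 31.1 and 0.117, Lrg1 at 108 and 4.27, Gab1 at 107 and 26.1, Thbs1 at 424 and 49.8, Hp at 269 and 21.5 and Lyz2 at 4006 and 1413 CPM. In the library labelled GFI1 KO Vcan, Lrg1 and Hp were lower in dendritic cells than in B cells and the other 6 higher, and all 9 were higher in the B cells of that library than in those of the other. The part of free RNA in the ratios was not tested.

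Secretory epithelial genes were lower under GFI1 KO in dendritic cells and in B cells alike. Scgb1a1, the club cell secretoglobin, was at 65.6 and 436 CPM in dendritic cells, and at 29.0 and 1554 CPM in B cells. Within Ccr7/Fscn1 cells the sum of 8 epithelial markers ran the other way, at 368 and 203 CPM, with Scgb1a1 the most abundant under both labels. Scgb3a2 was at 0 and 28.1 CPM in dendritic cells and at 0.460 and 23.5 in B cells, Scgb3a1 at 4.37 and 65.2 against 0.460 and 12.8, and Retnla at 0 and 42.3 against 0.460 and 143. Scgb3a1 thus stood above its B cell level in both libraries. Ccl22, Aldh1a2, Apol7c and Itgb8 were much lower in B cells than in dendritic cells of the same library under GFI1 WT. In B cells Ccl22 was at 0 and 22.0 CPM, Aldh1a2 at 0.690 and 2.81, Apol7c at 0 and 0.995 and Itgb8 at 0 and 0.878, against 1539, 87.9, 134 and 49.1 CPM in the dendritic cells under GFI1 WT.

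Receptors that set the growth and movement of dendritic cells were nearer to the median. Of 13 growth factor and cytokine receptors 1 was past 2-fold higher and 0 lower over all dendritic cells, with a median ratio of 1.06. The receptor for GM-CSF was among the closest, with Csf2ra at 235 and 229 CPM and Csf2rb at 298 and 337. Csf1r, by which monocytes and macrophages respond to CSF1, was the 1 higher, at 237 and 85.1 CPM. Ifngr1, the receptor for interferon-γ, was at 633 and 386 CPM (ratio 1.64, 1.48 to 1.81) and Tgfbr1, of TGF-β, at 128 and 240 (ratio 0.534, 0.436 to 0.648), and neither passed 2-fold. Of 10 chemokine and trafficking receptors 2 were past 2-fold higher, among them Cx3cr1 at 121 and 48.5 CPM, and Ccr7 was the 1 lower. Ccr2, which draws monocytes and cDC2 precursors from the blood, was at 498 and 308 CPM (ratio 1.62, 1.45 to 1.81).

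Of 12 cytokines that passed the minimum 1 was past 2-fold higher and 3 lower. Il6 was at 4.37 CPM under GFI1 KO, from 1 cell, and 37.4 under GFI1 WT, from 46 cells, and Il12b at 135 and 406 CPM, in 5 of 84 and 56 of 329 cells. Il1rn, which blocks interleukin-1, was at 19.7 and 44.5 CPM. Osm (oncostatin M) was the 1 higher, at 66.7 and 23.8 CPM. Il12a and Ifnb1 gave 0 UMIs in dendritic cells of both libraries.

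Markers of lymphoid, stromal and endothelial cells were scarce in the dendritic cells. Of 8 T cell markers 0 reached the minimum of 30 UMIs. The summed level of 8 B cell markers was 127 CPM under GFI1 KO and 103 under GFI1 WT, with Ighm the most abundant, of 7 endothelial markers 42.6 and 56.2 and of 7 fibroblast markers 8.74 and 22.4. Of 9 plasmacytoid dendritic cell markers 5 passed the minimum, of which 0 were past 2-fold higher and 1 (Ccr9) lower. The 9 summed to 453 and 445 CPM, led by Bst2 and Tcf4, and Klk1 was at 0 under both labels. Neutrophil markers summed to 1811 and 604 CPM, against 1465 and 559 in B cells, with S100a9 the most abundant under both labels and Camp at 0, and of the 5 of 10 that passed the minimum 3 were past 2-fold higher and 1 lower. Of their 1657 UMIs under GFI1 KO 1578 lay in the 11 mixed cells, and the sum ran the other way in Xcr1/Clec9a cells (77.0 and 503 CPM) and in Ccr7/Fscn1 cells (89.1 and 1622 CPM). In Cd209a cells these markers gave 40 and 30 UMIs. Of 7 interstitial macrophage markers that passed the minimum 1, Apoe, was past 2-fold higher (583 and 123 CPM) and 3, Ms4a7, Pf4 and Cd163, lower, with a median ratio of 0.841. Their sum of 741 and 349 CPM followed Apoe, which stood at 688 and 308 CPM in B cells. The part of these cells in the differences between the labels was not tested.

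Lineage genes of Xcr1/Clec9a cells lay near a ratio of 1. Of 6217 genes with at least 30 UMIs 141 (2.27%) were past 2-fold higher and 360 (5.79%) lower under GFI1 KO, and of 13 cDC1 genes outside the rule 0 were in either direction, with a median ratio of 0.975 and a summed level of 8511 and 9444 CPM. Batf3 was at 182 and 167 CPM (ratio 1.09, 0.797 to 1.46), and Irf8 had a ratio of 0.983 (0.888 to 1.09). Wdfy4, needed for cross-presentation, was at 2045 and 2541 CPM and the adhesion molecule Cadm1 at 976 and 1216. Tlr3 was lowest relative to GFI1 WT among those named, at 176 and 270 CPM (ratio 0.650, 0.481 to 0.865). Xcr1 and Clec9a, genes of the rule, had ratios of 0.918 and 0.972.

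Some costimulation and checkpoint ligands lay lower in Xcr1/Clec9a cells. Of 10 costimulation and checkpoint ligands that passed the minimum of UMIs, 0 were past 2-fold higher and 3 lower (Cd40, Cd274 and Pdcd1lg2), with a median ratio of 0.693. Cd40, the receptor for T cell help, was at 9.24 CPM under GFI1 KO and 68.6 under GFI1 WT (ratio 0.135, 0.0272 to 0.409), with 3 UMIs behind the first value. Cd274, which encodes PD-L1, was at 12.3 and 77.7 CPM, and Nr4a3, an activation-induced nuclear receptor, at 166 and 591 (ratio 0.282, 0.209 to 0.372). Ccl17 was at 376 and 1004 CPM, with 55 of its 122 UMIs under GFI1 KO in 1 cell. Mthfs, an enzyme of folate metabolism, was detected in 4 of 30 and 52 of 100 cells, at 12.3 and 112 CPM. Il12b, Eda, Ccl3 and Mfge8 were also among the 8 lowest, and S100a9, S100a8 and Gzma, the remaining 3, rested on few cells.

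Among the 8 highest genes in Xcr1/Clec9a cells were Thbs1, Plac8, Hp, Ly6a, Chil3, Id3 and Cybb. Plac8, a small cysteine-rich protein of myeloid cells and lymphocytes, was at 530 and 64.1 CPM and in 10 of 30 and 15 of 100 cells, below the 1289 and 938 CPM of B cells. Cybb, a subunit of the phagocyte NADPH oxidase, gave 43 and 21 UMIs (ratio of CPM 6.98, 4.05 to 12.4), in 7 of 30 and 9 of 100 cells. It reached the minimum of UMIs through its GFI1 KO level and could only be higher, so its rank is not read as a result. Irf7, an interferon regulatory factor, was at 52.3 and 8.13 CPM (ratio 6.44, 2.72 to 16.4). It fell short of the minimum of 30 UMIs over both libraries in this class and was not among the genes called.

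In Cd209a cells a larger share of genes lay past 2-fold. Of 6212 genes 405 (6.52%) were past 2-fold higher and 715 (11.5%) lower in the library labelled GFI1 KO. Of 13 cDC2 genes outside the rule that passed the minimum 1 was past 2-fold higher and 6 lower, with a median ratio of 0.880 and a summed level of 2489 CPM under GFI1 KO and 6844 under GFI1 WT. Ccl17 was at 113 and 1187 CPM (ratio 0.0951, 0.0648 to 0.135) and was detected in 5 of 30 and 77 of 121 cells. Mgl2 was at 476 and 1664 CPM (ratio 0.286, 0.238 to 0.341), in 10 of 30 and 102 of 121 cells. Clec10a was at 127 and 118 CPM (ratio 1.08, 0.727 to 1.57) and Sirpa had a ratio of 1.25 (0.969 to 1.60), so the cDC2 genes did not move as a block. Cd209a itself, which defined the class, was at 1192 and 1383 CPM.

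Of 16 dendritic cell transcription factors that passed the minimum, 2 were past 2-fold higher and 2 lower in the same cells, with a median ratio of 1.04. The 2 lower ones were Irf4 at 42.3 and 113 CPM (ratio 0.376, 0.190 to 0.679) and Nr4a3 at 321 and 1070 (ratio 0.300, 0.240 to 0.371). The 2 higher ones were Irf8 (67.0 and 13.3 CPM) and Spi1, which encodes PU.1 (818 and 405 CPM), and Zeb2, Klf4, Id2 and Bcl6 did not pass 2-fold. Irf8 reached the minimum of UMIs through its GFI1 KO level and could only be higher. Tnip3, an inhibitor of NF-κB signalling, was at 405 and 2639 CPM (ratio 0.154, 0.126 to 0.185). Cd24a was at 24.7 and 187 CPM and Epcam, an adhesion molecule of epithelium that some dendritic cells share, at 3.53 and 69.2. Timd4, a receptor for phosphatidylserine on dying cells, gave 0 UMIs under GFI1 KO and 178 CPM in 33 of 121 cells under GFI1 WT, a ratio of 0.0596 against a floor of 3 UMIs (10.6 CPM) with an exact interval that reaches 0.0739. Fnbp1l, a regulator of membrane curvature and actin, was at 3.53 and 238 CPM, and Cacnb2, a calcium channel subunit, at 14.1 and 263. In B cells Tnip3 was at 4.37 and 42.4 CPM, below its level in Cd209a cells under both labels. C1qa, a complement chain of macrophages, was the last of the 8 lowest genes, with 1 UMI under GFI1 KO and 170 UMIs, in 15 of 121 cells, under GFI1 WT. Of 5 interstitial macrophage markers that passed the minimum in Cd209a cells 4 were past 2-fold lower, C1qa, C1qb, C1qc and Cd163, and Apoe was higher, at 804 and 67.5 CPM.

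Costimulatory ligands showed a graded pattern in Cd209a cells. Of 9 such ligands that passed the minimum 1, Vsir (VISTA), was past 2-fold higher and 4 lower, with a median ratio of 0.559. Icosl, the ligand of the T cell molecule ICOS, was at 21.2 and 96.7 CPM (ratio 0.219, 0.0787 to 0.491), Cd40 at 59.9 and 162, Tnfsf9 (4-1BB ligand) at 183 and 474 and Cd80 at 384 and 824 (ratio 0.466, 0.379 to 0.569). Cd83 had a ratio of 0.528 and Cd86, the partner of Cd80 for CD28, of 0.810, and neither passed 2-fold. Of 12 chemokines 1, Ccl5, was past 2-fold higher and 6 lower, among them Ccl22 at 52.9 and 156 CPM and Cxcl10 at 10.6 and 143. Il1b, an inflammatory cytokine, was at 5479 and 3244 CPM (ratio 1.69, 1.59 to 1.79).

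Cell cycle genes were nearly all lower in Cd209a cells. Of the 14 that passed the minimum 0 were past 2-fold higher and 13 lower, with a median ratio of 0.132 and a summed level of 314 and 1922 CPM. Mki67, the proliferation marker Ki-67, was at 10.6 CPM under GFI1 KO and 224 under GFI1 WT, Top2a (topoisomerase IIα) at 7.05 and 183, Stmn1 at 3.53 and 266, and Pclaf at 0 and 119. A UMI of Mki67 or Top2a was found in 5 of 30 cells (16.7%, 5.64 to 34.7) and 56 of 121 cells (46.3%, 37.2 to 55.6), a difference of -29.6 percentage points (-44.0 to -9.39). With each cell thinned to 3000 UMIs the shares were 6.67% and 24.0%, a difference of -17.3 points (-27.7 to -0.255). Over all dendritic cells the same share was 21.4% and 37.1% (difference -15.7 points, -25.5 to -4.09), and in Ccr7/Fscn1 cells 11.1% and 33.3% (-22.2 points, -40.0 to 16.9). In Xcr1/Clec9a cells it was 26.7% and 31.0% (-4.33 points, -21.9 to 16.8), and of 15 cell cycle genes 1 was past 2-fold higher and 2 lower. In the mixed cells the summed level of the cell cycle genes ran the other way, at 1546 and 902 CPM (ratio 1.71, 1.47 to 1.99). The difference between the classes in this respect was not tested.

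**Figure D1:**
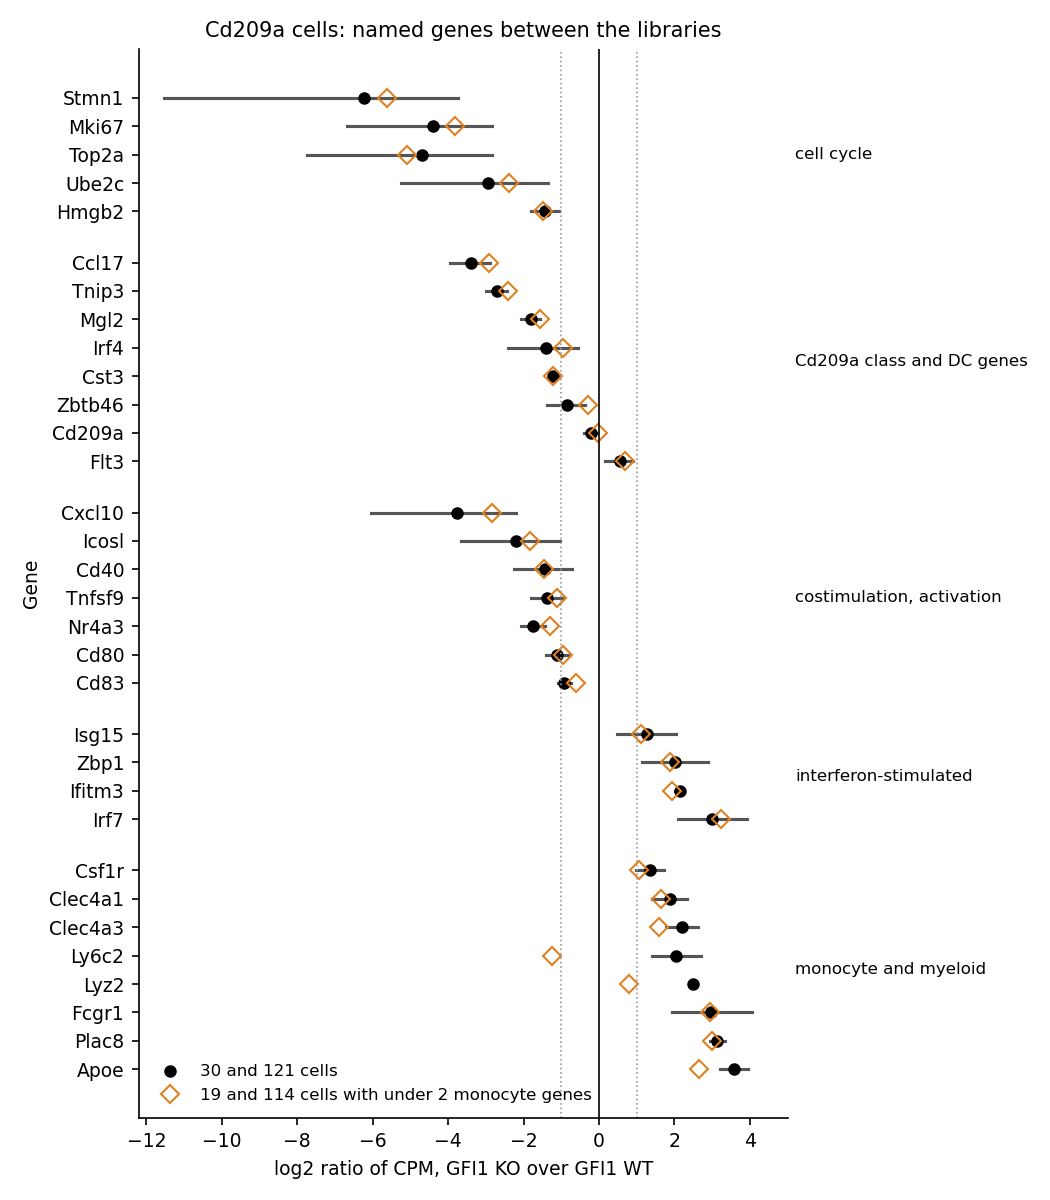
Ratio of CPM under GFI1 KO over GFI1 WT in Cd209a cells on a log2 axis, with 95% counting intervals, for genes grouped by role. Ccl17 (0.0951), Tnip3 (0.154) and the cell cycle genes lay below 1, whereas Ifitm3 (4.39), Irf7 (7.96) and Plac8 (8.80) lay above it.

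Interferon-stimulated genes lay higher in Cd209a cells. Of 9 that passed the minimum 5 were past 2-fold higher and 1 lower, with a median ratio of 2.42 and a summed level of 4897 CPM under GFI1 KO and 1448 under GFI1 WT. Ifitm3, a membrane protein that restricts virus entry, made up most of that sum, at 4040 and 920 CPM (ratio 4.39, 4.04 to 4.77), against 709 and 164 in B cells and 5030 and 4311 in monocytes with MHC class II. Irf7 was at 113 and 14.2 CPM (ratio 7.96, 4.29 to 15.3), in 15 of 30 and 11 of 121 cells, and the nucleic acid sensor Zbp1 at 84.6 and 20.8. Irf7, with 49 UMIs over both libraries, reached the minimum through its GFI1 KO level and could only be higher. The same holds for Zbp1, with fewer than 30 UMIs under GFI1 WT, so the calls of these genes are not read as a result. The ubiquitin-like Isg15 had a ratio of 2.42. Cxcl10 was the 1 lower. In Xcr1/Clec9a cells 2 of 8 such genes were past 2-fold higher and 1 lower, with a median ratio of 1.14. The sum of the list was also higher under GFI1 KO outside Cd209a cells. It was 2184 and 1112 CPM in Ccr7/Fscn1 cells, 3405 and 1488 in mixed cells and 1112 and 588 in B cells. In monocytes with MHC class II it was 6111 and 5867 CPM, and in endothelial cells it was lower, at 3109 and 3719.

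The promoters of these genes were read for the interferon-stimulated response element, searched as GAAANNGAAA on both strands, in 250 bases before and 50 bases after the start of each gene as RefSeq annotates it on GRCm38.p6, a build other than that of the counts. The promoters of Isg15 (chr4:156200769-156201068, minus strand), Ifitm3 (chr7:141010695-141010994, minus strand) and Cxcl10 (chr5:92348840-92349139, minus strand) are shown because all 3 hold the element while the genes differed in opposite directions, and capitals mark the matches, which overlap in Isg15.
Isg15: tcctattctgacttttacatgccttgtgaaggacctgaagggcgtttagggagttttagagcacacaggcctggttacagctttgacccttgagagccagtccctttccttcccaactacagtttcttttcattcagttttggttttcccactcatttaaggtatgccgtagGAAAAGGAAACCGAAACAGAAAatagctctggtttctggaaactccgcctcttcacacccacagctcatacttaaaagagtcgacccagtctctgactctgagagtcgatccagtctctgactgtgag
Ifitm3: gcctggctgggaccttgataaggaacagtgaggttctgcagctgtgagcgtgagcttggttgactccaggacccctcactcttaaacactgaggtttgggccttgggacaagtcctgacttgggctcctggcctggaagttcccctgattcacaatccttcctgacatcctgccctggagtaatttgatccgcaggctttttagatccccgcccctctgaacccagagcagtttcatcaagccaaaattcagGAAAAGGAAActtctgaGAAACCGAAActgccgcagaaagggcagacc
Cxcl10: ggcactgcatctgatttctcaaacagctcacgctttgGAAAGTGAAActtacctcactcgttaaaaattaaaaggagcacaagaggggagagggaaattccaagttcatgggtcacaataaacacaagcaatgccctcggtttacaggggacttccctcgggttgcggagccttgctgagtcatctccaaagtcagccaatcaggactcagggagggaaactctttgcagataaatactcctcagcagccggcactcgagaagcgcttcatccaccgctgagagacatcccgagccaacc
Of all 27025 promoters of this length 3.49% hold the element. RefSeq promoters were matched for 16 of the 20 listed interferon-stimulated genes, and 10 of the 16 hold it. Among 3 matched genes past 2-fold higher in Cd209a cells 2 hold it, and these letters are not in this window of the third, Irf7. Isg15 was at 84.6 and 35.0 CPM in Cd209a cells, Ifitm3 at 4040 and 920 and Cxcl10 at 10.6 and 143, and a match in these letters is a description and not a binding site.

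Monocyte genes were the other group that lay higher in Cd209a cells. Of 8 monocyte markers that passed the minimum 6 were past 2-fold higher and 0 lower, with a median ratio of 3.62 and a summed level of 10044 CPM under GFI1 KO and 2349 under GFI1 WT. The same sum was 6412 and 2688 CPM in B cells and 29099 and 21110 in monocytes with MHC class II. Lyz2, again the most abundant of the list, was at 5955 and 1054 CPM in Cd209a cells. Fcgr1, another of the list, reached the minimum through its GFI1 KO level and could only be higher. Cells with at least 2 of 5 monocyte genes numbered 11 of 30 (36.7%) and 7 of 121 (5.79%), a difference of 30.9 percentage points (13.2 to 50.7), and with each cell thinned to 3000 UMIs the shares were 13.3% and 2.48%. In the 11 and 7 cells the median CD11c tag was 31 and 79 UMIs, and in the other 19 and 114 cells it was 193 and 323. The difference of the thinned shares was 10.9 points (0.231 to 28.4). B cells met the same condition in 8.02% (6.41 to 9.88) and 2.12% (1.66 to 2.68) of cells, a difference of 5.89 points (4.19 to 7.81), and after thinning in 6.39% and 0.590%, with median depths of 4186 and 4778.5 UMIs against 11169 and 12005 in Cd209a cells before thinning. At equal depth the intervals of the Cd209a shares (3.76 to 30.7% and 0.514 to 7.07%) took in the B cell shares of the same library, so a higher share in Cd209a cells than in B cells was not detectable there. The cells that met it had less CD11c tag under both labels.

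Some receptors of monocytes and macrophages were higher in the same cells. The Fc receptors Fcgr1 (84.6 and 10.8 CPM) and Fcgr4 (98.7 and 15.8 CPM) were past 2-fold higher. Both reached the minimum of UMIs through their GFI1 KO level and could only be higher, so these calls are not read as a result. Of 14 C-type lectins that passed the minimum 4 were past 2-fold higher (Clec4a1, Clec4d, Clec4e and Clec4a3, the last at 342 and 74.2 CPM) and 2 lower (Cd209d and Mgl2), with a median ratio of 0.980 and a summed level of 3878 and 4722 CPM. Csf1r, the receptor for macrophage colony-stimulating factor, was at 353 and 138 CPM. Plac8 was at 2397 and 273 CPM, Ifitm1 at 568 and 30.8 and Id3, an inhibitor of helix-loop-helix factors, at 356 and 11.7, with 58 of its 101 UMIs under GFI1 KO in 1 cell. Ifitm1 gave 45.3 and 17.4 CPM and Id3 60.3 and 56.9 in B cells, so neither reached in B cells the level it had in these cells under GFI1 KO. Thbs1 (462 and 16.7 CPM) and Hp (208 and 6.67 CPM) were close to the 424 and 269 CPM that B cells gave under GFI1 KO. Id3, Thbs1 and Hp also reached the minimum through their GFI1 KO levels and could only be higher.

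Most of the differences were also present in the Cd209a cells with fewer than 2 monocyte genes, 19 under GFI1 KO and 114 under GFI1 WT. Among these the ratio was 0.133 for Ccl17, 0.340 for Mgl2, 0.188 for Tnip3, 0.431 for Cst3 and 0.0705 for Mki67. It was 3.82 for Ifitm3, 9.45 for Irf7, 7.99 for Plac8 and 7.70 for Fcgr1. Cells with a UMI of Mki67 or Top2a were 4 of 19 (21.1%) and 55 of 114 (48.2%). Irf4, at 0.517, and Cd80, also at 0.517, were no longer past 2-fold, Lyz2 came to 1.74, and Ly6c2, a surface protein of classical monocytes that was at 148 and 35.8 CPM in all Cd209a cells, came to 0.420, with 2 UMIs in 1 of the 19 cells. Fcgr1 and Ly6c2 are among the 5 genes that made this choice, which by itself lowers them. The dendritic cell, cell cycle and interferon-stimulated genes named here kept their direction in cells with few monocyte genes, and Lyz2 and Ly6c2 were no longer past 2-fold higher.

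Ccr7/Fscn1 cells were few, 9 under GFI1 KO and 54 under GFI1 WT, and 1 cell decided many values. Of 3691 genes 357 (9.67%) were past 2-fold higher and 462 (12.5%) lower. Of 18 mature dendritic cell genes outside the rule 0 were past 2-fold higher and 7 lower, with a median ratio of 0.595 and a summed level of 15989 CPM under GFI1 KO and 26954 under GFI1 WT. Among the 9 cells under GFI1 KO, UMIs of this list per 10000 UMIs of the cell were 15.1, 18.6 and 42.0 in 3 cells and 132 to 499 in the other 6, against a lowest, median and highest value of 16.9, 265 and 709 in the 54 cells under GFI1 WT. The cells at 18.6 and 15.1 held 5 and 4 of the 5 monocyte genes, CD11b tags of 800 and 828 UMIs and CD11c tags of 16 and 4. In the 7 and 54 cells with fewer than 2 monocyte genes, a choice made after seeing the data, 5 of the 18 genes were past 2-fold lower and 0 higher, the median ratio was 0.816 and the summed level 22610 and 26954 CPM. Ccl22 was at 1671 and 6443 CPM (ratio 0.259, 0.219 to 0.305), in 5 of 9 and 46 of 54 cells, and its ratio in the cells with fewer than 2 monocyte genes was 0.380. Il4i1, an amino acid oxidase of mature dendritic cells, was at 167 and 767 CPM, Socs2, a suppressor of cytokine signalling, at 123 and 446 and Fabp5 at 858 and 2471. Aldh1a2 was found in 1 of 9 and 32 of 54 cells, Apol7c in 1 of 9 and 22 of 54 and Slc7a11, a cystine transporter, in 1 of 9 and 26 of 54. Ptgs2 (cyclooxygenase 2), Myo1e and Fxyd2 gave 0 UMIs under GFI1 KO, for which the exact Poisson interval reaches 41.1 CPM.

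Signalling genes of the same cells were nearer to 1. Of 14 NF-κB pathway genes 0 were past 2-fold higher and 2 lower, with a median ratio of 0.797. Relb, the subunit of the alternative pathway, was at 513 and 1013 CPM (ratio 0.506, 0.367 to 0.684), and its inhibitor family member Nfkbia had a ratio of 0.479. Ccl5 was at 5270 and 4172 CPM and Ccl17 at 2017 and 2847, but without the top cell of each library their ratios were 0.730 and 0.116. Ccr7 and Fscn1, by which the class was chosen, had ratios of 0.724 and 0.502, and of 1.05 and 0.735 in the cells with fewer than 2 monocyte genes. Relb and Nfkbia came to 0.709 and 0.646 there, nearer to 1 than in all 9 cells.

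Among the 8 highest genes in Ccr7/Fscn1 cells were F13a1, Vcan, Saa3, Chil3, Ly6c2, Lyz2 and Plcb1. The 10 monocyte markers summed to 10251 and 381 CPM. Of the 7 that passed the minimum 5 had fewer than 30 UMIs under GFI1 WT and passed through the GFI1 KO cells alone (Ly6c2 with 35 and 2 UMIs, Vcan 50 and 0, F13a1 52 and 0, Ccr2 38 and 9, Plac8 69 and 27), so their number is not read as a result. Lyz2 was at 6875 and 213 CPM, and 473 of its 617 UMIs under GFI1 KO lay in 1 cell, without which and its GFI1 WT counterpart the ratio went from 32.3 to 11.7. In the 7 and 54 cells with fewer than 2 monocyte genes it was 0.537, so the higher Lyz2 level rested on the 2 cells that held such genes. Cells with at least 2 of 5 monocyte genes were 2 of 9 (22.2%) and 0 of 54, a count of 0 for which the exact interval reached 6.60%. S100a9 and S100a8, neutrophil proteins that ranked lowest, rested on 1 cell under GFI1 WT.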

How the data were processed

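Deposited raw UMI counts per gene and antibody tag (33696 genes and 18 tags) had been made by the authors with Cell Ranger 9.0.1 on GRCm39 (mm39), per the labels, from 10x Genomics 3′ libraries. Kept cells had at least 500 gene UMIs, at least 200 genes and at most 20% mitochondrial UMIs, which left 10495 of 10700 (GFI1 KO) and 19342 of 19515 (GFI1 WT). The libraries held 116825535 and 162599284 gene UMIs. Gene levels were summed UMIs over the cells of a class per 1000000 UMIs (CPM), after ribosomal, mitochondrial and Gm- genes (9531) were left out of the total. Ratios were given with exact conditional binomial intervals, levels with exact Poisson intervals and shares with Clopper-Pearson 95% intervals. Differences of shares combined these by the square-and-add method. With 1 library per label no test was run, and cells were not used as replicates. A gene was called past 2-fold among those with at least 30 UMIs over both libraries, and a floor of 3 UMIs stood in for 0. The call and its intervals were tested on simulated data. Genes named were those of the rule and of 36 fixed lists, the 8 highest and 8 lowest by the interval bound nearer to 1, and the 10 leading genes of each class. Members and lists were chosen with earlier results of these data known. Comparison cells were gated on raw UMIs: B cells on Cd79a with Cd79b, monocytes on at least 2 of Fcgr1, C5ar1, Ly6c2, F13a1 and Vcan with at least 10 MHC class II UMIs, and endothelium on at least 2 of Ptprb, Cdh5 and Cldn5 without Ptprc. Doublets were kept, and Scrublet (scanpy 1.11.5, Python 3.11.15) was run per library as an alternative.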

Additional observations from a re-analysis of the deposited data

Results flagged for a closer look

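For 4 genes the difference between the labels ran past 2-fold in opposite directions in different classes of dendritic cell, and these differences between classes were not tested. Dst, a cytoskeletal linker, had a ratio of GFI1 KO over GFI1 WT of 5.97 in Ccr7/Fscn1 cells, where 22 of 23 UMIs under GFI1 KO lay in 1 cell, and of 0.242 in Cd209a cells (70.5 and 291 CPM, in 9 of 30 and 77 of 121 cells). Fosb, an immediate-early gene, had a ratio of 3.59 in Ccr7/Fscn1 cells (290 and 80.7 CPM), where 19 of 26 UMIs under GFI1 KO lay in 1 cell, and of 0.368 in Cd209a cells (187 and 508 CPM). Gzma (granzyme A) had a ratio of 6.07 in Cd209a cells, where all 33 UMIs under GFI1 KO lay in 1 cell, and in Xcr1/Clec9a cells it gave 0 UMIs under GFI1 KO and 107 under GFI1 WT, 54 of them in 1 of 8 cells, a ratio of 0.0956 against the floor of 3 UMIs with an exact interval that reaches 0.120. The unnamed gene ENSMUSG00000121360 had a ratio of 127 in Cd209a cells, from 30 UMIs in 1 cell under GFI1 KO, and gave 0 UMIs and 34 UMIs in Xcr1/Clec9a cells, the 34 in 3 of 100 cells with 24 in 1 of them, a ratio of 0.301 against the same floor with an interval that reaches 0.391. In each of the 4 genes 1 cell held most or all UMIs behind the higher ratio.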

How the results depend on the processing

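The share of dendritic cells was lower in the library labelled GFI1 KO under all 6 alternatives run, with differences from -1.14 to -0.765 percentage points, and the class shares changed direction under none of the 16 run on them (4.52 to 12.6 points for Xcr1/Clec9a, -9.38 to -2.33 for Cd209a and -9.35 to -3.02 for Ccr7/Fscn1). The number of genes past 2-fold followed the minimum of UMIs. It was 964 over all dendritic cells, 501 in Xcr1/Clec9a, 1120 in Cd209a and 819 in Ccr7/Fscn1 cells, came to 2078, 1883, 2680 and 3090 with no minimum beyond 1 UMI, and to 393, 94, 375 and 167 with at least 100 UMIs. The other 17 alternatives stayed within 1.5 times, among them 1249 genes with equal weight for each class, of which 718 were shared. Of the ratios of named genes 517 stayed within their counting interval, 100 moved, 50 of them without the top cell of each library and 35 in cells with fewer than 2 monocyte genes, and 2 reversed in such cells: Ly6c2 in Cd209a cells (0.420, from 2 UMIs in 1 cell under GFI1 KO, and itself one of the 5 genes behind that choice) and Lyz2 in Ccr7/Fscn1 cells (0.537). The alternatives on the top cell and on monocyte genes were chosen after seeing the data. No paired analysis was possible because each label has 1 library. No library could be left out for the same reason. The 30, 30 and 9 cells of the classes under GFI1 KO set the depth of these comparisons, and the share of dissociation, sorting, free RNA and library effects in any difference between the labels cannot be told apart from genotype.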

Other observations

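Of 12 pattern recognition genes that passed the minimum in Cd209a cells 2 were past 2-fold higher and 2 lower. Of all genes in that class 6.52% were higher and 11.5% lower. The median ratio of the 12 was 1.22 against 1.03 over all genes. The endosomal receptor Tlr13 was at 74.0 CPM under GFI1 KO and 26.7 under GFI1 WT and the cytosolic RNA sensor Rigi gave 17 and 30 UMIs, in 10 of 30 and 21 of 121 cells. The DNA sensor Cgas was at 7.05 and 35.8 CPM, from 1 of 30 and 27 of 121 cells, and Tlr4, the receptor for lipopolysaccharide, at 10.6 and 22.5. Sting1, through which Cgas signals, was at 88.1 and 89.2 CPM (ratio 0.988, 0.612 to 1.54). Immediate-early and dissociation genes were past 2-fold in neither direction over all dendritic cells (0 of 16), with a median ratio of 1.02 and a summed level of 12561 and 11919 CPM. In Ccr7/Fscn1 cells 5 of these 16 were past 2-fold higher and 1 lower, beside 9.67% and 12.5% of all genes in that class, and for 1 of them, Fosb, 19 of 26 UMIs under GFI1 KO lay in 1 of the 9 cells. In Xcr1/Clec9a cells 0 of the 16 were higher and 2 lower, and in Cd209a cells 1 and 1.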
